A study of Mus musculus with 56 samples.

Results

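These regions are the stretches past the ends of genes at which RNA polymerase II phosphorylated on serine 2 of its C-terminal domain (RNAPII-pS2) was found by ChIP-seq in bone marrow-derived macrophages (BMDMs). In ChIP-seq, chromatin is precipitated with an antibody to a protein and its DNA is sequenced. Peaks of the 8 RNAPII-pS2 samples of the pretreatment experiment were taken where the file annotated them as a transcription termination site (TTS), which HOMER assigns to a peak whose center lies from 100 bp before to 1000 bp after an annotated transcript end. Overlapping TTS peaks were merged, and a merged region was kept if at least 2 of the 8 samples had a TTS peak in it. This gave 1564 TTS regions with the ends of 1549 genes, out of 41506 RNAPII-pS2 regions built in the same way over all annotation classes. Of the 219166 peaks in the 8 samples, 7780 (3.55%) were annotated as TTS, and 6803 of these lay in the kept regions. A region was given the gene of the transcript whose end it marks, which was also the gene with the nearest start site at 763 regions (48.8%).

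The 8 samples were 4 groups of 2, all of BMDMs from wild-type mice (C57BL/6 background) of 8 to 12 weeks that were grown for 6 days with M-CSF from L929 cell supernatant. Ctrl/ctrl cells received neither stimulus, IL-4 PT/ctrl cells received IL-4 (20 ng/ml) for 24 hr, ctrl/LPS cells received lipopolysaccharide (LPS, 100 ng/ml) for 1 hr, and IL-4 PT/LPS cells received IL-4 for 24 hr and then LPS for 1 hr. The design asks how each stimulus alone, and LPS after IL-4, moves polymerase at gene ends. Such cultures are grown in vitro with M-CSF, and a marrow culture can hold other cell types. The study describes its ChIP-seq replicates as independent biological replicates. With 2 samples per group an exact permutation test cannot go below p = 0.333, so the tests below come from limma, which fits each region on its own and moderates its variance toward that of the others, over all 41506 regions. Their p-values measure the spread between the 2 samples of a group, pooled over the 4 groups. A missing peak was set to the same low value in every sample. A group without peaks therefore adds almost no spread, which can lower the p-values of such regions.

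RNA polymerase II carries phosphate on serine 5 of its C-terminal domain near gene starts and gains phosphate on serine 2 as it elongates, so that serine 2 phosphorylation is richest toward and past the 3′ end of genes. There it helps to bring in the factors that cut the transcript and add the poly(A) tail, and polymerases run on past the cut site for some distance before they are released. Most mRNAs are cut a short way after a poly(A) signal, whereas mRNAs of replication-dependent histones end at a stem-loop and receive no poly(A) tail. In macrophages, LPS acts through Toll-like receptor 4 and NF-κB (p65) on inflammatory genes, and IL-4 acts through STAT6 on genes of alternative activation.

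The ends of genes that the results turn on are shown with 30 bases of the gene's strand (GRCm38, RefSeq), written 5′ to 3′. Capitals mark the last AATAAA or ATTAAA within 50 bases of the annotated end, and at histone ends the arms of an inverted repeat of 6 bases around 4 bases.
Ccl3, chr11:83647850-83647879, minus strand: taccagagaagtAATAAAtatgccctttaa
Il6, chr5:30019938-30019967, plus strand: tgtcttcaaacaAATAAAttatattatatt
Il1b, chr2:129364578-129364607, minus strand: atgaaataaatttcATTAAAacaaacaaac
Il1rn, chr2:24351454-24351483, plus strand: tctctgcttgtaAATAAAaagcttatgcag
Dusp1, chr17:26505597-26505626, minus strand: tttatacaacagAATAAAttatgacgtttc
Retnla, chr16:48844428-48844457, plus strand: tgcttcttgaaaAATAAAgacaaatttgca
Socs1, chr16:10783828-10783857, minus strand: agtttaggtAATAAActttattatgaaagt
Edn1, chr13:42307956-42307985, plus strand: atgattttagaaAATAAAtatttttcccta
Creg1, chr1:165775274-165775303, plus strand: ttcaaatcaataATTAAAagcataattcta
Laptm5, chr4:130936107-130936136, plus strand: ggaagaagggccAATAAAgcaactgcaagc
Rpl19, chr11:98030444-98030473, plus strand: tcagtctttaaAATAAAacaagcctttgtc
Gapdh, chr6:125161855-125161884, minus strand: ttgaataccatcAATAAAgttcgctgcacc
H4c6, chr13:23551286-23551315, minus strand: tttctcaaaGGCCCTtttcAGGGCCaccca
H4c4, chr13:23581940-23581969, plus strand: aaaaaccaaaGGCCCTtttcAGGGCCacta
H4c2, chr13:23757357-23757386, plus strand: gttacaaaaGGTCCTtttcAGGACCactca
The first 12 end in a poly(A) signal, and the 3 histone H4 ends carry the stem in its place. Over the 1445 protein-coding ends with a TTS region, 82.4% held AATAAA or ATTAAA in their last 50 bases on the gene's strand, against 73.8% of all 22773 protein-coding RefSeq ends. AATAAA was found at 70.7% of ends with a TTS region and 60.02% of all ends, and ATTAAA at 15.1% and 17.2%, with some ends holding both. None of 11 histone ends held either hexamer and all 11 held the inverted repeat, which 3.29% of all ends also held. A match to these letters is a description of the sequence and not a measured cut site.

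TTS peaks lay past the annotated ends. In each of the 8 samples 93.5% to 95.9% of TTS peak centers were downstream of the end, and the median center lay 589.5 to 629 bp past it. This position is partly fixed by the annotation, which reaches 1000 bp downstream and only 100 bp upstream. Within that window the share of peaks was larger toward its far edge than around the end in every sample, as the plot of peak positions shows. It did not rise at every step in each sample. At 167 or 168 of the 171 regions with a TTS peak in all 8 samples, those with the peak center near the RefSeq end, the median downstream edge of the peaks was 943 ± 15.6 bp past the end in ctrl/ctrl, 1035 ± 24.0 bp in IL-4 PT/ctrl, 948.5 ± 7.78 bp in ctrl/LPS, and 1001.5 ± 7.78 bp in IL-4 PT/LPS (mean ± SD, n = 2 samples). Both IL-4-pretreated groups thus had a downstream edge farther out than their partners without IL-4, and the samples did not overlap. The upstream edge lay farther upstream with IL-4 too. Its medians were 101 and 103.5 bp past the end in ctrl/ctrl and 12 and 1 bp in IL-4 PT/ctrl. With LPS they were 77 and 95 bp in ctrl/LPS and -9 and -11 bp in IL-4 PT/LPS. Median centers did not move downstream with IL-4. They were 549 and 502.25 bp in ctrl/ctrl, 488 and 509.5 bp in IL-4 PT/ctrl, 537 and 526.5 bp in ctrl/LPS, and 479.5 and 467.5 bp in IL-4 PT/LPS. Over the 620 to 955 TTS regions measurable in a sample, the downstream edge in ctrl/LPS (941.75 ± 3.18 bp) and IL-4 PT/LPS (941 ± 2.83 bp) was alike within the spread. Peak edges widen with sequencing depth, which is unknown here, and the part of depth in these edges was not tested.

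**Figure D1:**
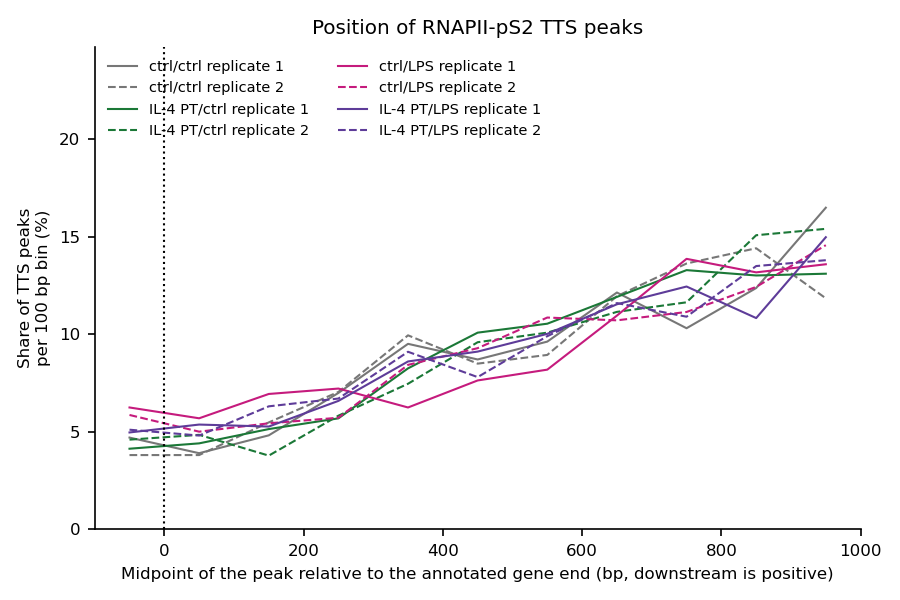
Share of the TTS peaks of each RNAPII-pS2 sample (y axis, %) in bins of 100 bp of the distance from the annotated gene end to the center of the peak (x axis, bp, downstream positive), 1 line per sample. In all 8 samples the shares are lowest around the end and highest toward 1000 bp.

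The regions were 840 bp wide at the median (267 to 5435 bp). A TTS-annotated peak was present in all 8 samples at 171 regions and in only 2 at 445, and 411 regions overlapped a RNAPII-pS2 peak of any annotation in all 8. Another gene's start site lay inside 130 regions (8.31%), the gene's own start inside 34, and an end of the opposite strand inside 102, so that polymerase at those regions could belong to more than 1 transcript. A further 30 regions, among them those of Hfe, Tlr4, Ucp2, and Aagab, were not next to the RefSeq end of the transcript that the file names.

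In the separate 1 hr experiment of the series, with 2 untreated and 2 IL-4-treated RNAPII-pS2 samples, 1373 of the 1564 regions (87.8%) held a RNAPII-pS2 peak in 1 or more of these 4, and 1186 (75.8%) in all 4. TTS peaks made up 12.1% to 14.7% of the RNAPII-pS2 peaks in those 4 samples but 2.69% to 4.59% in the 8 samples described here, which had 25838 to 29235 peaks each. With an antibody to serine 5 phosphorylation the share was 4.02% to 4.69% in the 1 hr experiment and 3.86% to 4.97% in the pretreatment experiment. In the pretreatment experiment the serine 2 lists were thus no richer in TTS peaks than the serine 5 lists. Peak names in the 4 samples of the 1 hr experiment carry the opposite treatment to the sample labels, so those samples were used without regard to treatment. The value of a region in a sample is the highest score among the RNAPII-pS2 peaks that overlap it, and this score is a −log10 of a p- or q-value. It rises with enrichment and with depth, so a difference of log2 scores is not a fold change of bound polymerase.

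Macrophage genes were well represented, with TTS regions for 11 of 26 macrophage markers, whereas none of 27 markers of T cells, B cells, fibroblasts, and erythroid cells had one. Only 1445 of the 22773 protein-coding RefSeq ends had a TTS region, so so few markers cannot show that these other cell types were absent. Of 10 neutrophil markers, S100a8, S100a9, and Ngp had a TTS region, while Mpo, Elane, Prtn3, and Ly6g had none. The summed score of these 3 was 6 and 7.72 in ctrl/ctrl, 27.7 and 21.3 in ctrl/LPS, and 18.0 and 9.87 in IL-4 PT/LPS, with no peak in IL-4 PT/ctrl, and its part in the differences below was not tested. Scores of the 2 samples of a group correlated at r = 0.880 to 0.900 across the 411 regions with a peak in all samples, and samples of different groups at 0.288 to 0.742.

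The share of TTS regions with a RNAPII-pS2 peak was highest after IL-4 alone and lowest after LPS alone. It was 62.5% and 62.7% in ctrl/ctrl, 75.9% and 80.1% in IL-4 PT/ctrl, 51.9% and 52.0% in ctrl/LPS, and 67.7% and 68.4% in IL-4 PT/LPS. No group overlapped another. The regions were chosen by TTS peaks in these same 8 samples, and 159 of the 1564 had peaks in 1 group only. The order thus partly restates how many TTS peaks each sample gave, and it was not tested. Ctrl/ctrl samples gave 922 and 935 TTS peaks and IL-4 PT/ctrl samples 1136 and 1261. With LPS the numbers were 743 and 730 in ctrl/LPS and 1016 and 1037 in IL-4 PT/LPS. Promoter regions did not follow the order of the shares, since 85.0% and 83.2% had a peak in ctrl/ctrl and 66.1% and 70.1% in IL-4 PT/ctrl. Regions in 3′ UTRs, which adjoin the gene end, had a peak in 58.7% and 55.9% of cases in ctrl/ctrl, 65.3% and 70.7% in IL-4 PT/ctrl, 51.5% and 50.2% in ctrl/LPS, and 61.3% and 58.5% in IL-4 PT/LPS, the same order of group means as TTS regions. Where a TTS region had a peak, the median score was 7.80 to 7.98 in ctrl/ctrl, 8.59 to 9.62 in IL-4 PT/ctrl, 8.46 to 8.82 in ctrl/LPS, and 8.55 to 9.04 in IL-4 PT/LPS.

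**Figure D2:**
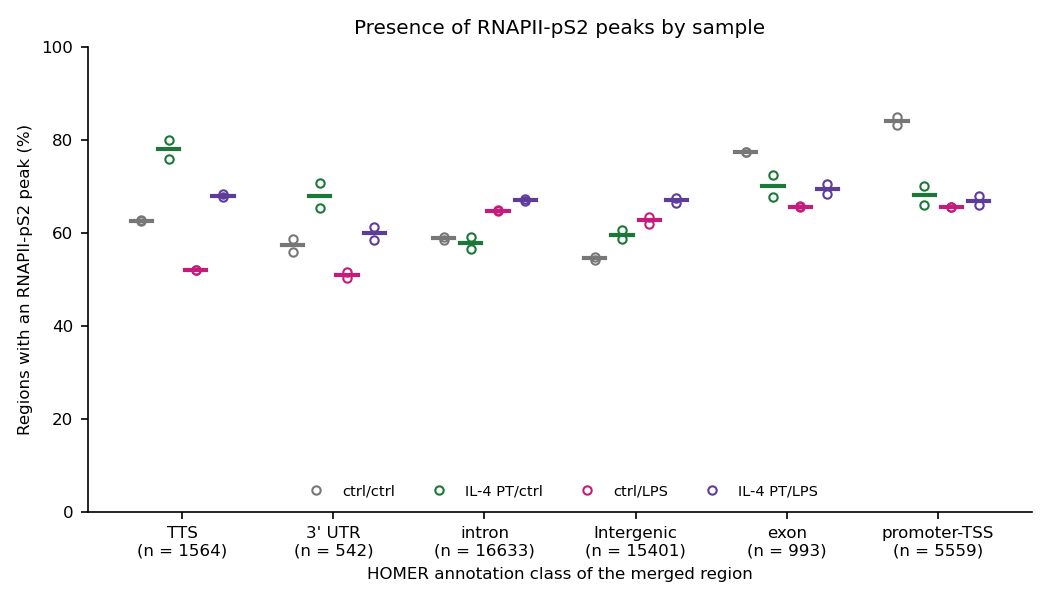
Share of merged regions with a RNAPII-pS2 peak (y axis, %) by annotation class (x axis, number of regions in brackets), with 1 circle per sample and a bar at the mean of the 2 samples. TTS regions range from 51.9% in a ctrl/LPS sample to 80.1% in an IL-4 PT/ctrl sample, while promoter regions are highest in ctrl/ctrl.

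Among the 10 TTS regions with the highest mean score were those of Tmem107, Mir1894, H4c4, Ftl1, Actg1, Hcar2, Gm15413, Tmsb4x, and H4c9. Ftl1, the ferritin light chain, whose region spans the gene and carries an end of Gys1, scored 66.8 and 70.1 in ctrl/ctrl, 87.5 and 84.2 in IL-4 PT/ctrl, 35.5 and 39.3 in ctrl/LPS, and 66.1 and 55.4 in IL-4 PT/LPS. Its ctrl/LPS samples were the lowest. Hcar2, the receptor for hydroxybutyrate and niacin, scored 109.55 and 87.5 in ctrl/ctrl, 66.3 and 71.6 in IL-4 PT/ctrl, 44.3 and 43.9 in ctrl/LPS, and 31.4 and 32.7 in IL-4 PT/LPS. Hcar2 was highest in ctrl/ctrl and lowest in IL-4 PT/LPS, with no overlap between the groups with and without LPS, and its LPS response without IL-4 was -1.30 ± 0.12 (log2 score difference ± SE, limma adjusted p = 0.000858). Actg1, cytoplasmic γ-actin, scored 35.6 and 30.7 in ctrl/ctrl, 64.8 and 81.3 in IL-4 PT/ctrl, 63.9 and 57.2 in ctrl/LPS, and 73.01 and 73.2 in IL-4 PT/LPS. All 3 treated groups of Actg1 lay above ctrl/ctrl, by 1.20 ± 0.11 after IL-4 alone (adjusted p = 0.00138) and 0.72 ± 0.11 after LPS alone (adjusted p = 0.00346). Hcar2 turned direction (1.60) where a peak had to cover at least 50% of the region, and Actg1 where only TTS-annotated peaks were counted (-4.54 after IL-4 and -4.84 after LPS). Tmem107 and Mir1894 have the start of another gene inside the region.

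LPS alone, compared as ctrl/LPS against ctrl/ctrl, was followed by higher scores at the ends of inflammatory genes and their feedback inhibitors and by lower scores at the ends of histone genes and macrophage marker genes. At a limma adjusted p of at most 0.05, 188 TTS regions (12.0%) were higher and 331 (21.2%) lower, and over all 41506 regions 18.3% were higher and 15.5% lower. A TTS region was therefore called in either direction about as often as any region (33.2% and 33.7%), with lower calls in a larger share than over all regions. Of the 188 higher regions, 108 had no peak in either ctrl/ctrl sample, and of the 331 lower regions, 225 had no peak in either ctrl/LPS sample. Where all 4 samples had a peak, the median difference was 1.46 on the log2 scale at 60 higher regions and -1.45 at 82 lower regions. Since a missing peak was fitted at the lowest score of the files, the difference of a single gene is given with its error only where every compared sample had a peak, whereas medians of lists, and values under a changed setting, include missing peaks at that floor. A region with peaks in 1 group only was kept through the group where it is high and had to differ. There were 159 of these, among them 8 of the 188 higher and 20 of the 331 lower regions, and the listed genes Lif, Ccl5, Irf3, Hsp90ab1, Fos, and Klf4. Regions with peaks only with or only without a stimulus were likewise kept through the side where they are high. With LPS only, these include Il1rn, Il6, Cxcl1, Cd69, Dclre1b, and Stat3, and without LPS only Laptm5, Apoe, Tyrobp, Sesn1, Fcgr1, and Lipa. With IL-4 only they include Retnla, Irf4, and Edn1, and without IL-4 only Rpl3l. Their p-values for that stimulus describe the difference and do not test it. Fits were repeated with missing peaks set to 4 times the lowest score (the raised floor), with only TTS-annotated peaks counted, with peaks that cover at least 50% of the region, and with the upper 50% of peaks by score. With the raised floor 116 regions were higher and 193 lower.

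Among 14 inflammatory cytokine and chemokine genes with a TTS region, 8 were higher after LPS, 1 was lower, and 5 did not pass the test, with a median of 1.39 (0.74 with the raised floor) against -0.15 over all TTS regions. Il1rn, the antagonist of the IL-1 receptor, had no peak in ctrl/ctrl or IL-4 PT/ctrl and scored 38.1 and 30.8 in ctrl/LPS and 16.9 and 15.8 in IL-4 PT/LPS. LPS samples alone had a peak, and the region was kept through them (limma adjusted p = 0.000578 for LPS without IL-4). The ctrl/LPS samples were above the IL-4 PT/LPS samples. Il6, the cytokine interleukin 6, had no peak in ctrl/ctrl or IL-4 PT/ctrl and scored 13.8 and 16.8 in ctrl/LPS and 15.2 and 12.6 in IL-4 PT/LPS. The 2 LPS groups overlapped, and LPS without IL-4 gave an adjusted p of 0.000929. Il1b, the precursor of interleukin 1β, had no peak in IL-4 PT/ctrl and scored 8.55 and 4.15 in ctrl/ctrl, 36.3 and 31.3 in ctrl/LPS, and 26.5 and 22.9 in IL-4 PT/LPS. Ctrl/LPS was highest, IL-4 PT/LPS came next without overlap, and both IL-4 PT/ctrl samples lacked a peak. The LPS response of Il1b without IL-4 was 2.35 ± 0.36 (adjusted p = 0.00377). Ccl3, a chemokine of the MIP-1 family, scored 25.6 and 25.4 in ctrl/ctrl, 14.98 and 12.6 in IL-4 PT/ctrl, 84.03 and 89.3 in ctrl/LPS, and 77.4 and 82.9 in IL-4 PT/LPS. Both LPS groups lay far above the others, IL-4 PT/ctrl lay below ctrl/ctrl, and the LPS response without IL-4 was 1.62 ± 0.17 (adjusted p = 0.00112). The regions of Ccl3 and Ifnb1 span these short genes and also hold their start sites. In the other fits the test no longer passed for Il1b with only TTS-annotated peaks.

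Ifnb1, interferon β, had no peak in IL-4 PT/ctrl and scored 4.63 and 4.10 in ctrl/ctrl, 26.2 and 27.4 in ctrl/LPS, and 17.2 and 15.8 in IL-4 PT/LPS. Every LPS sample was above every other sample (LPS response without IL-4 2.47 ± 0.26, adjusted p = 0.00109). Cxcl1, a chemoattractant of neutrophils, had no peak in ctrl/ctrl or IL-4 PT/ctrl and scored 8.66 and 6.43 in ctrl/LPS and 16.99 and 17.1 in IL-4 PT/LPS. Here IL-4 PT/LPS was above ctrl/LPS. Il12b, the p40 subunit of IL-12 and IL-23, was the cytokine gene that was lower, and scored 20.6 and 21.5 in ctrl/ctrl, 10.3 and 21.2 in IL-4 PT/ctrl, 10.01 and 8.99 in ctrl/LPS, and 3.76 and 5.14 in IL-4 PT/LPS. Its ctrl/LPS samples were below both ctrl/ctrl samples (-1.30 ± 0.36, adjusted p = 0.0335). This call of Il12b was lost without 1 library (adjusted p up to 0.129 without ctrl/ctrl replicate 1 or 2 or ctrl/LPS replicate 1 or 2). The file's transcript of Il12b had no RefSeq entry to check the end against. Under changed settings the call was lost for Il12b with quantile normalization or without centring.

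Inhibitors that limit the response were higher as well. Of 11 genes of mRNA decay factors, MAP kinase phosphatases, and related feedback inhibitors, 6 were higher and 1 lower (median 1.19). Dusp1 and Dusp2 encode phosphatases that inactivate MAP kinases. Dusp1 scored 6.12 in 1 of 2 ctrl/ctrl samples, 6.26 and 7.19 in IL-4 PT/ctrl, 33.5 and 38.6 in ctrl/LPS, and 34.1 and 28.1 in IL-4 PT/LPS. Both LPS groups of Dusp1 were above all other samples and overlapped each other (adjusted p = 0.00875 for LPS without IL-4). Dusp2 scored 4.42 in 1 of 2 ctrl/ctrl samples, 6.17 and 8.66 in IL-4 PT/ctrl, 52.4 and 56.6 in ctrl/LPS, and 30.2 and 33.5 in IL-4 PT/LPS, with IL-4 PT/LPS below ctrl/LPS (adjusted p = 0.00179 for LPS without IL-4). Another gene starts within the region of Dusp2, and the call of Dusp1 was lost without 1 library (adjusted p of 0.0503 without ctrl/LPS replicate 2). Gadd45b, a stress sensor induced by NF-κB, scored 19.4 and 11.96 in ctrl/ctrl, 43.6 and 50.7 in IL-4 PT/ctrl, 75.3 and 73.96 in ctrl/LPS, and 77.3 and 78.5 in IL-4 PT/LPS. It was lowest in ctrl/ctrl and intermediate after IL-4 alone, and the LPS groups were close to each other (LPS response without IL-4 2.14 ± 0.20, adjusted p = 0.000906). Zfp36, or tristetraprolin, which binds AU-rich mRNAs, was higher by 1.19 ± 0.23 (adjusted p = 0.00967). Its relative Zfp36l1 was the member that was lower, with 13.4 and 17.2 in ctrl/ctrl and 3.59 and 3.50 in ctrl/LPS (-2.25 ± 0.30, adjusted p = 0.00229). With only TTS-annotated peaks counted, the direction of Zfp36 turned (-4.05).

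Of 6 genes of NF-κB subunits and their inhibitors, 4 were higher and none lower. Nfkbia, the inhibitor IκBα, scored 24.8 and 25.8 in ctrl/ctrl, 31.9 and 31.7 in IL-4 PT/ctrl, 40.8 and 42.4 in ctrl/LPS, and 34.5 and 36.3 in IL-4 PT/LPS. The 4 groups of Nfkbia did not overlap, and LPS without IL-4 gave a small difference of 0.57 ± 0.14 (adjusted p = 0.0253). Its region also carries the microRNA Mir1198. Tnip3, an inhibitor of NF-κB signaling, had no peak in ctrl/ctrl and scored 5.62 and 7.66 in IL-4 PT/ctrl, 20.7 and 12.9 in ctrl/LPS, and 11.9 and 15.7 in IL-4 PT/LPS. It lacked a peak only in ctrl/ctrl (adjusted p = 0.000994). Rela, which encodes p65 itself, scored 46.9 and 25.9 in ctrl/ctrl, 44.5 and 56.2 in IL-4 PT/ctrl, 50.2 and 47.9 in ctrl/LPS, and 71.2 and 71.6 in IL-4 PT/LPS, and did not pass the test (adjusted p = 0.357). Of 9 immediate-early transcription factor genes, 5 were higher after LPS and none lower, among them Junb with 25.9 and 25.9 in ctrl/ctrl and 42.6 and 49.7 in ctrl/LPS (0.68 ± 0.16, adjusted p = 0.0174), whose region spans the gene. Rela passed without 1 library (adjusted p of 0.0166 without ctrl/ctrl replicate 1). Calls lost without 1 library were those of Nfkbia (adjusted p up to 0.11 without ctrl/ctrl replicate 1 or 2 or ctrl/LPS replicate 1 or 2) and Junb (adjusted p up to 0.0829 without ctrl/ctrl replicate 1 or 2 or ctrl/LPS replicate 2). Other fits ended the call for Nfkbia with the raised floor, with only TTS-annotated peaks, with the upper 50% of peaks, with quantile normalization, or among regions with a peak in all 8 samples and for Junb with the upper 50% of peaks or with quantile normalization. A call was gained for Rela with only TTS-annotated peaks.

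Interferon response genes were higher more often than lower. Of 17 genes of interferon regulatory factors, STATs, and interferon targets, 7 were higher and 1 was lower (median 0.84), against 4 and 2 with only TTS-annotated peaks and a median of 0.09 with the raised floor. Isg15, a ubiquitin-like modifier, scored 14.9 and 16.1 in ctrl/ctrl, 10.6 and 15.3 in IL-4 PT/ctrl, 43.98 and 50.2 in ctrl/LPS, and 50.7 and 45.2 in IL-4 PT/LPS. LPS samples of Isg15, whose region spans the gene, lay above all samples without LPS (1.45 ± 0.20 without IL-4, adjusted p = 0.00237). Rsad2, the antiviral protein viperin, had no peak in IL-4 PT/ctrl and scored 7.53 and 7.07 in ctrl/ctrl, 23.9 and 22.8 in ctrl/LPS, and 20.8 and 18.1 in IL-4 PT/LPS. It was absent after IL-4 alone and high in both LPS groups (adjusted p = 0.00437 for LPS without IL-4). Gbp2, a guanylate-binding protein, had 1 peak of 3.93 in ctrl/ctrl and scored 18.6 and 19.9 in ctrl/LPS (adjusted p = 0.00572). Irf8, a transcription factor of myeloid cells, was the lower member and scored 18.1 and 20.2 in ctrl/ctrl, 24.9 and 22.8 in IL-4 PT/ctrl, 8.79 and 9.32 in ctrl/LPS, and 17.4 and 18.6 in IL-4 PT/LPS. Only ctrl/LPS was low, at -1.23 ± 0.21 against ctrl/ctrl (adjusted p = 0.00583). In the other fits the test no longer passed for Irf8 with peaks covering 50% of the region.

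Macrophage marker genes were lower. In such bulk samples, fewer cells of a type and less polymerase per cell cannot be told apart. Of the 11 with a TTS region, 6 were lower after LPS and none higher, with a median of -2.20, and all 11 had a peak in both ctrl/ctrl samples and 5 and 7 in the ctrl/LPS samples. The summed score of the 11 was 192.98 and 167 in ctrl/ctrl and 44.7 and 66.4 in ctrl/LPS. Csf1r, the receptor of M-CSF, scored 44.7 and 43.2 in ctrl/ctrl, 49.7 and 48.1 in IL-4 PT/ctrl, 4.93 and 8.32 in ctrl/LPS, and 6.11 and 4.48 in IL-4 PT/LPS. The 4 samples without LPS were all above the 4 samples with LPS, by a response without IL-4 of -2.93 ± 0.32 (limma adjusted p = 0.00118). Laptm5, a lysosomal membrane protein of blood cells, had no peak in ctrl/LPS or IL-4 PT/LPS and scored 20.6 and 14.4 in ctrl/ctrl and 14.8 and 23.2 in IL-4 PT/ctrl. Apoe, the lipid carrier apolipoprotein E, had no peak in ctrl/LPS or IL-4 PT/LPS and scored 14.2 and 18.9 in ctrl/ctrl and 6.85 and 12.01 in IL-4 PT/ctrl. Both genes had a peak in every sample without LPS and in none with LPS (adjusted p = 0.000836 for Laptm5 and 0.000989 for Apoe). Tyrobp, the adaptor DAP12, showed the same presence, with 5.40 and 6.10 in ctrl/ctrl (adjusted p = 0.0023). Itgam, the integrin CD11b, had no peak in IL-4 PT/LPS and scored 13.9 and 10.8 in ctrl/ctrl, 6.37 and 4.74 in IL-4 PT/ctrl, and 6.49 and 5.61 in ctrl/LPS, and its response without IL-4 was -1.17 ± 0.34 (adjusted p = 0.0425). Ptprc, which encodes CD45, scored 8.22 and 6.61 in ctrl/ctrl, 8.17 and 11.2 in IL-4 PT/ctrl, 10.5 and 14.3 in ctrl/LPS, and 18.6 and 19.5 in IL-4 PT/LPS and did not pass the test (adjusted p = 0.169). Without 1 library the call was lost for Itgam (adjusted p up to 0.179 without ctrl/ctrl replicate 1 or 2 or ctrl/LPS replicate 1 or 2 or IL-4 PT/LPS replicate 1 or 2). With only TTS-annotated peaks counted, so that a peak assigned to another class is read as no peak, the direction turned for Csf1r (1.94) and Itgam (0.38), and 4 of the 11 genes were lower and 1 higher. With the raised floor the median of the 11 was -1.17. Under changed settings the call was lost for Apoe with only TTS-annotated peaks, for Tyrobp with the raised floor or with peaks covering 50% of the region, and for Itgam with peaks covering 50% of the region.

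Histone gene ends were among the highest in resting cells and were lower after LPS. Of 12 replication-dependent histone genes with a TTS region, 8 were lower and none higher after LPS (median -1.50), and 9 had a peak in all 8 samples. H4c6 scored 50.6 and 52.8 in ctrl/ctrl, 37.1 and 47.2 in IL-4 PT/ctrl, 13.6 and 16.2 in ctrl/LPS, and 19.5 and 12.5 in IL-4 PT/LPS. H4c2 scored 64.8 and 45.6 in ctrl/ctrl, 35.99 and 40.6 in IL-4 PT/ctrl, 11.9 and 11.9 in ctrl/LPS, and 17.3 and 20.2 in IL-4 PT/LPS. H4c4 scored 83.5 and 89.3 in ctrl/ctrl, 66.7 and 74.4 in IL-4 PT/ctrl, 50.3 and 58.3 in ctrl/LPS, and 59.6 and 61.7 in IL-4 PT/LPS. In all 3 every sample with LPS was below every sample without it. The LPS responses without IL-4 were -1.95 ± 0.24 for H4c6 (adjusted p = 0.00172), -2.34 ± 0.20 for H4c2 (adjusted p = 0.000785), and -0.82 ± 0.13 for H4c4 (adjusted p = 0.00382). H4c11 fell from 83.04 and 77.5 in ctrl/ctrl to 36.01 and 23.1 in ctrl/LPS (-1.63 ± 0.20, adjusted p = 0.0016). Regions of these short genes hold the start site too, and the nearly identical histone genes may share reads. Other fits ended the call for H4c11 with peaks covering 50% of the region.

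Among the 10 regions with the largest decrease after LPS alone were those of Creg1, Pnpla7, Midn, Txnip, Sesn1, Lyl1, Ccdc28b, Pgap6, and Phldb3, all with a peak in both ctrl/ctrl samples and in neither ctrl/LPS sample. Creg1, a lysosomal glycoprotein, had no peak in ctrl/LPS and scored 35.2 and 31.9 in ctrl/ctrl, 47.8 and 53.4 in IL-4 PT/ctrl, and 10.8 and 6.49 in IL-4 PT/LPS. IL-4 PT/LPS kept a weak peak that ctrl/LPS lacked (adjusted p = 0.000498 for LPS without IL-4). Txnip, the inhibitor of thioredoxin, had no peak in ctrl/LPS and scored 30.1 and 25.1 in ctrl/ctrl, 48.9 and 50.3 in IL-4 PT/ctrl, and 11.3 and 8.92 in IL-4 PT/LPS, with the same order of groups (adjusted p = 0.000447). Sesn1, a sestrin of the stress response, had no peak in ctrl/LPS or IL-4 PT/LPS and scored 21.4 and 29.7 in ctrl/ctrl and 11.98 and 17.9 in IL-4 PT/ctrl (adjusted p = 0.000751). The regions of Pnpla7, Ccdc28b, and Pgap6 hold the start site of another gene. Those with the largest increase were E230016M11Rik, Il1rn, Dusp2, Blm, Gm6377, Rab30, Wfdc17, Prkar2b, Cd69, and Zfp558. Gm6377 had a peak in ctrl/LPS only and was kept through that group, so its increase has no test. E230016M11Rik, a long noncoding RNA, had no peak in ctrl/ctrl and scored 18.7 and 20.3 in IL-4 PT/ctrl, 47.2 and 37.6 in ctrl/LPS, and 29.7 and 41.9 in IL-4 PT/LPS. It lacked a peak only in ctrl/ctrl (adjusted p = 0.000449). Cd69, an activation antigen of leukocytes, had no peak in ctrl/ctrl or IL-4 PT/ctrl and scored 19.4 and 24.7 in ctrl/LPS and 10.9 and 5.31 in IL-4 PT/LPS, so that ctrl/LPS was above IL-4 PT/LPS (adjusted p = 0.00124 for LPS without IL-4).

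**Figure D3:**
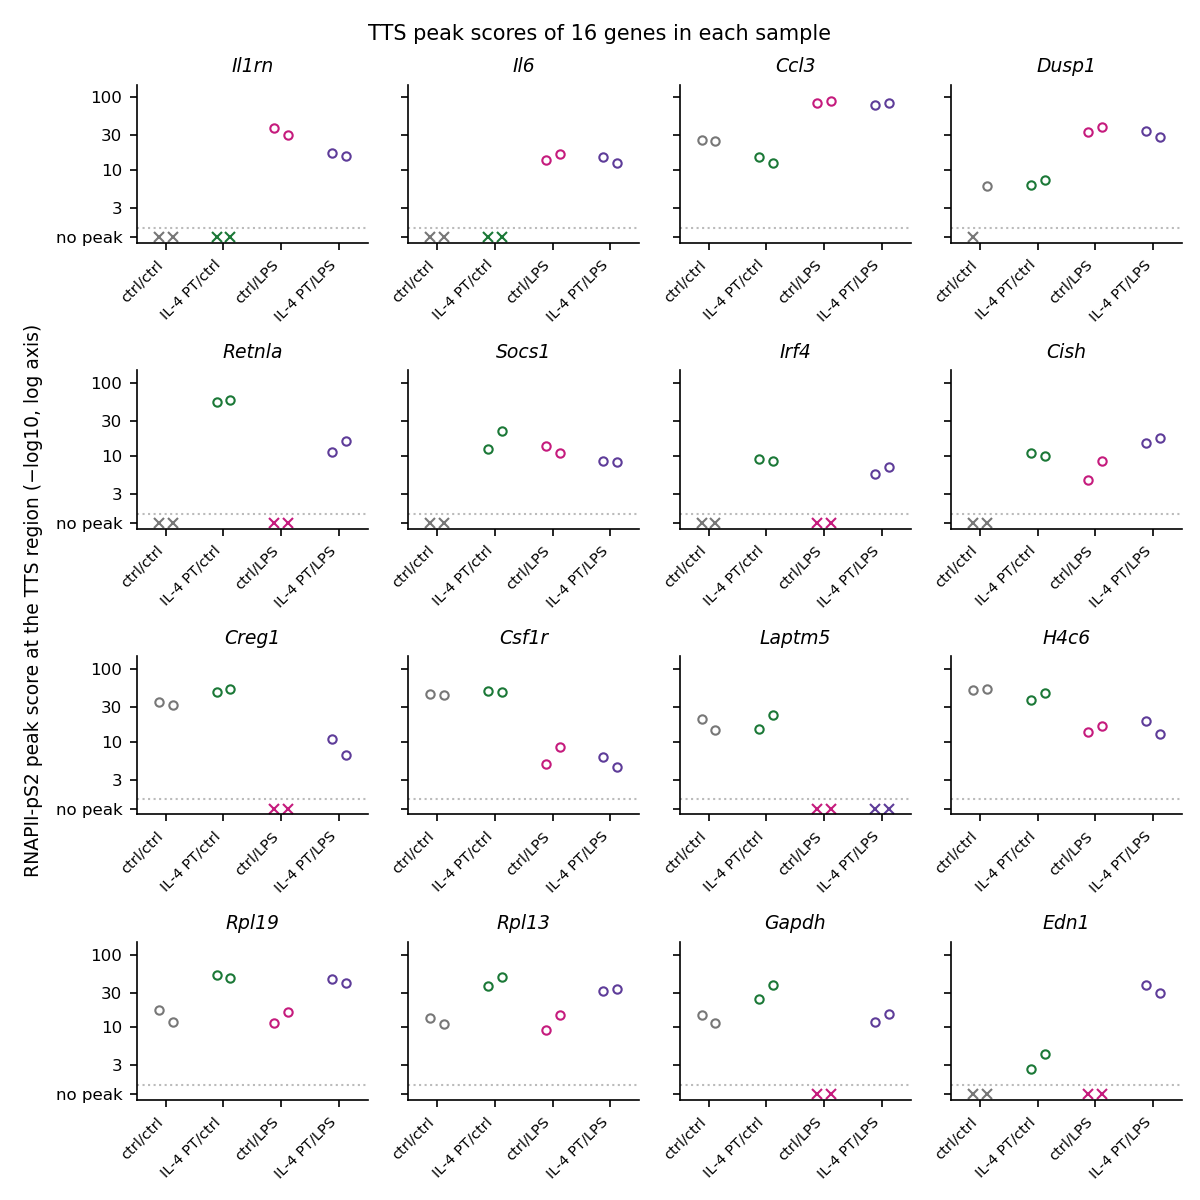
RNAPII-pS2 peak score at the TTS region (y axis, −log10 of a p- or q-value, logarithmic axis) of 16 genes in the 8 samples (x axis, group), with circles for samples with a peak and crosses on the lowest line for samples without one. Il1rn and Il6 have peaks only with LPS, Retnla and Irf4 only with IL-4, Laptm5 only without LPS, and Edn1 is highest in the IL-4 PT/LPS samples.

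IL-4 alone, compared as IL-4 PT/ctrl against ctrl/ctrl, was followed by higher scores at a broad set of gene ends, among them those of IL-4-linked genes and of genes for ribosomal and other abundant proteins. After 24 hr, 362 TTS regions (23.1%) were higher and 86 (5.50%) lower at the same threshold, whereas over all regions 11.9% were higher and 9.95% lower. The median difference was 0.65 at TTS regions and 0.06 over all regions, and at TTS regions it was 0.15 with the raised floor, 0.33 with only TTS-annotated peaks, and 0.30 with the upper 50% of peaks. Among the other classes, 3′ UTR regions were higher in 15.7% (median 0.21), intergenic regions in 15.5%, intron regions in 10.7%, and promoter regions in 3.71%. Of the 362 higher TTS regions, 206 had no peak in either ctrl/ctrl sample, 89 had peaks in IL-4 PT/ctrl only, and 122 had a peak in all 4 samples with a median difference of 1.39.

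Of 12 IL-4-linked genes of alternative activation with a TTS region, 8 were higher after IL-4 alone and none lower, with a median of 1.95. The count was 5 with only TTS-annotated peaks, and the median was 0.88 with the raised floor. Retnla, which encodes RELM-α, had no peak in ctrl/ctrl or ctrl/LPS and scored 54.9 and 57.8 in IL-4 PT/ctrl and 11.1 and 15.9 in IL-4 PT/LPS. It had the largest increase of all TTS regions after IL-4 alone (limma adjusted p = 0.000834), was absent in both groups without IL-4, and was lower in IL-4 PT/LPS than after IL-4 alone. The regions of Retnla and Rnase2a span these genes and hold their starts. Rnase2a, an eosinophil-associated ribonuclease, scored 4.26 in 1 of 2 ctrl/ctrl samples, 46.6 and 46.4 in IL-4 PT/ctrl, 2.54 in 1 of 2 ctrl/LPS samples, and 15.5 and 19.8 in IL-4 PT/LPS, and Ear2 of the same family had no peak in ctrl/LPS or IL-4 PT/LPS and scored 8.08 and 5.68 in ctrl/ctrl and 25.4 and 17.4 in IL-4 PT/ctrl. Both were highest after IL-4 alone (adjusted p = 0.00329 for Rnase2a and 0.0227 for Ear2), and Ear2 lacked a peak with LPS whether or not IL-4 came first. Irf4, a transcription factor of alternative activation, had no peak in ctrl/ctrl or ctrl/LPS. It scored 9.06 and 8.40 in IL-4 PT/ctrl and 5.69 and 6.95 in IL-4 PT/LPS. Only IL-4-pretreated cells had a peak, and the region was kept through them (adjusted p = 0.00205). Socs1 and Cish encode inhibitors of cytokine signaling. Socs1 had no peak in ctrl/ctrl and scored 12.3 and 22.04 in IL-4 PT/ctrl, 13.8 and 10.9 in ctrl/LPS, and 8.47 and 8.15 in IL-4 PT/LPS, and Cish had no peak in ctrl/ctrl and scored 10.8 and 9.88 in IL-4 PT/ctrl, 4.61 and 8.48 in ctrl/LPS, and 15.2 and 17.6 in IL-4 PT/LPS. Neither had a peak in ctrl/ctrl and both had one in every other sample (adjusted p = 0.00138 for Socs1 and 0.00327 for Cish). Il4ra, the receptor of IL-4, scored 17.5 and 13.7 in ctrl/ctrl, 19.2 and 19.6 in IL-4 PT/ctrl, 18.3 and 20.6 in ctrl/LPS, and 16.6 and 23.04 in IL-4 PT/LPS and did not pass the test (adjusted p = 0.371). Without 1 library the call was lost for Ear2 (adjusted p up to 0.116 without ctrl/ctrl replicate 1 or 2 or IL-4 PT/ctrl replicate 1). In the other fits the test no longer passed for Irf4 with the upper 50% of peaks, for Socs1 with only TTS-annotated peaks or with peaks covering 50% of the region, and for Cish with the raised floor or with only TTS-annotated peaks.

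Ribosomal protein genes were the most numerous group. Of 26 with a TTS region, 14 were higher after IL-4 alone and 1, Rpl3l, was lower, with a median of 1.78 against 0.65 over all TTS regions. Rpl19 scored 17.4 and 11.8 in ctrl/ctrl, 52.8 and 47.2 in IL-4 PT/ctrl, 11.4 and 16.4 in ctrl/LPS, and 46.2 and 40.4 in IL-4 PT/LPS. Rpl13 scored 13.6 and 10.98 in ctrl/ctrl, 36.6 and 49.01 in IL-4 PT/ctrl, 9.26 and 14.6 in ctrl/LPS, and 31.2 and 33.3 in IL-4 PT/LPS. Rps2 had no peak in ctrl/LPS and scored 4.17 and 5.18 in ctrl/ctrl, 24.2 and 24.1 in IL-4 PT/ctrl, and 10.6 and 11.6 in IL-4 PT/LPS. In each, both IL-4-pretreated groups were above both groups without IL-4. The differences after IL-4 alone were 1.86 ± 0.28 for Rpl19 (adjusted p = 0.00487), 1.86 ± 0.28 for Rpl13 (adjusted p = 0.00489), and 2.44 ± 0.29 for Rps2 (adjusted p = 0.00228). Rpl3, with 16.8 and 18.7 in ctrl/ctrl and 51.5 and 50.9 in IL-4 PT/ctrl, did not pass the test (1.59 ± 0.50, adjusted p = 0.0724, and adjusted p down to 0.00972 without ctrl/LPS replicate 1 or 2). Rpl3l, a paralog of Rpl3 used in muscle, had no peak in IL-4 PT/ctrl or IL-4 PT/LPS and scored 18.5 and 13.8 in ctrl/ctrl and 5 and 12.1 in ctrl/LPS, and was absent wherever IL-4 had been given (adjusted p = 0.00418). At the 8 ribosomal protein regions with a peak in all 8 samples, 7 were higher and none lower. With only TTS-annotated peaks counted, 4 of the 26 were higher and 3 lower, and the direction of Rpl13 turned (-0.53). Under changed settings the call was lost for Rps2 with only TTS-annotated peaks. A call was gained for Rpl3 with the raised floor or with peaks covering 50% of the region.

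Of 14 abundant housekeeping genes, 8 were higher after IL-4 alone and none lower (median 1.25), and with only TTS-annotated peaks 4 were higher and 1 lower. Gapdh, the glycolytic enzyme, had no peak in ctrl/LPS and scored 14.6 and 11.3 in ctrl/ctrl, 24.5 and 38.1 in IL-4 PT/ctrl, and 11.8 and 15.3 in IL-4 PT/LPS. IL-4 PT/ctrl was highest, ctrl/LPS had no peak, and the difference after IL-4 alone was 1.31 ± 0.30 (adjusted p = 0.0248). Vim, the intermediate filament vimentin, scored 9.34 and 10.8 in ctrl/ctrl, 34.1 and 28.97 in IL-4 PT/ctrl, 35.4 and 34.02 in ctrl/LPS, and 44.5 and 37.8 in IL-4 PT/LPS. Ctrl/ctrl was below the 3 treated groups (1.71 ± 0.20 after IL-4 alone, adjusted p = 0.00222). Pfn1, the actin-binding protein profilin, scored 4.45 and 3.24 in ctrl/ctrl, 17.3 and 13.1 in IL-4 PT/ctrl, 3.80 and 4.30 in ctrl/LPS, and 16.5 and 8.45 in IL-4 PT/LPS, higher in both IL-4-pretreated groups (2.05 ± 0.42 after IL-4 alone, adjusted p = 0.0157). Fth1, the ferritin heavy chain, whose region also carries an end of Best1, scored 45.4 and 42.5 in ctrl/ctrl, 51.4 and 51.3 in IL-4 PT/ctrl, 49.3 and 47.8 in ctrl/LPS, and 39.7 and 45.3 in IL-4 PT/LPS and did not pass the test (0.29 ± 0.13, adjusted p = 0.192). Other large increases after IL-4 alone were at Hfe, which regulates iron uptake, with 49.03 and 57.8 against 1 peak of 4.24 in ctrl/ctrl (adjusted p = 0.00209), and at Jun, with 27.2 and 26.7 (adjusted p = 0.00279). Calls lost without 1 library were those of Gapdh (adjusted p up to 0.11 without ctrl/ctrl replicate 1 or 2 or IL-4 PT/ctrl replicate 2) and Pfn1 (adjusted p up to 0.08 without ctrl/ctrl replicate 2 or IL-4 PT/ctrl replicate 1). Other fits ended the call for Vim with only TTS-annotated peaks and for Pfn1 with only TTS-annotated peaks, with peaks covering 50% of the region, or with the upper 50% of peaks.

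Interferon targets and cytokine genes were the lists with the most lower members after IL-4 alone. Of the 17 interferon genes, 5 were lower and 1 higher, and of the 14 cytokine genes, 3 were lower and 1 higher. Where missing peaks were set to 4 times the lowest score, 2 interferon genes were lower and none higher, and 1 cytokine gene moved in each direction. Mx1, an antiviral GTPase, scored 21.5 and 29.6 in ctrl/ctrl, 4.37 and 3.49 in IL-4 PT/ctrl, 40.5 and 35.6 in ctrl/LPS, and 22.1 and 25.8 in IL-4 PT/LPS. IL-4 PT/ctrl was far below every other sample (-2.63 ± 0.28, adjusted p = 0.00168). Rsad2, listed above, lost its peak (adjusted p = 0.00166), and so did Ifnb1 (adjusted p = 0.007) and Il1b (adjusted p = 0.00964). Ifit2, another interferon target, scored 18.7 and 17.8 in ctrl/ctrl, 4.25 in 1 of 2 IL-4 PT/ctrl samples, 28.9 and 31.9 in ctrl/LPS, and 15.3 and 24.5 in IL-4 PT/LPS (adjusted p = 0.00915). Ccl3 differed by -0.83 ± 0.17 (adjusted p = 0.0178), and Il10, the anti-inflammatory cytokine, was the cytokine gene that was higher, with 8.98 and 9.23 in ctrl/ctrl and 27.2 and 15.9 in IL-4 PT/ctrl (1.25 ± 0.34, adjusted p = 0.0475). Calls lost without 1 library were those of Ccl3 (adjusted p up to 0.0768 without ctrl/ctrl replicate 1 or 2) and Il10 (adjusted p up to 0.162 without ctrl/ctrl replicate 1 or 2 or IL-4 PT/ctrl replicate 1 or ctrl/LPS replicate 1 or 2 or IL-4 PT/LPS replicate 1 or 2), and the direction of Il10 turned with only TTS-annotated peaks (-2.68). Thbs1, the matrix protein thrombospondin, had no peak in IL-4 PT/ctrl and scored 24.3 and 13.8 in ctrl/ctrl, 12.1 and 19.5 in ctrl/LPS, and 6.57 and 6.95 in IL-4 PT/LPS, and Lpxn, the adhesion adaptor leupaxin, had no peak in IL-4 PT/ctrl and scored 14.99 and 9.92 in ctrl/ctrl, 14.7 and 14.5 in ctrl/LPS, and 14.6 and 29.4 in IL-4 PT/LPS. Both lacked a peak only after IL-4 alone (adjusted p = 0.00178 for Thbs1 and 0.00324 for Lpxn). In the other fits the test no longer passed for Rsad2 with the raised floor, for Il1b with the raised floor, with only TTS-annotated peaks, or with the upper 50% of peaks, for Il10 with peaks covering 50% of the region, and for Lpxn with the raised floor or with the upper 50% of peaks.

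LPS after IL-4, compared as IL-4 PT/LPS against IL-4 PT/ctrl, was followed by higher scores at the ends of cytokine and interferon genes and lower scores at those of macrophage marker, histone, and housekeeping genes. Of the TTS regions, 187 (12.0%) were higher and 416 (26.6%) lower, and over all regions 18.4% were higher and 12.1% lower (30.5% in either direction), with medians of -0.57 at TTS regions and -0.08 over all regions. The TTS median was -0.18 with the raised floor and -0.35 with only TTS-annotated peaks. Of the 416 lower regions, 252 had no peak in either IL-4 PT/LPS sample, 89 had peaks in IL-4 PT/ctrl only, and 130 with peaks in all 4 samples had a median of -1.45. Cytokine genes were higher in 11 of 14 and lower in 1, with a median of 2.20, and interferon genes in 10 of 17 and 1. Macrophage markers were lower in 8 of 11 and histone genes in 8 of 12, with none higher in either list. Housekeeping genes were lower in 7 of 14 and none higher, and ribosomal protein genes were lower in 2 of 26 and higher in 1. With the raised floor, 10 ribosomal protein genes were lower and none higher, 7 cytokine genes (median 0.88) and 7 interferon genes (median 0.43) were higher, and 5 macrophage markers were lower. With only TTS-annotated peaks, 4 interferon genes were higher and 2 lower, 3 macrophage markers and 5 histone genes were lower, and 2 ribosomal protein genes were higher and none lower. Without centring, 5 histone genes were lower.

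Ccl3 gave an LPS response after IL-4 of 2.36 ± 0.17 (adjusted p = 0.00102), from a lower start than without IL-4, and the 2 responses did not differ past the threshold (0.74 ± 0.25, adjusted p = 0.0934, and adjusted p of 0.032 without IL-4 PT/ctrl replicate 1). Mx1 gave a response of 2.42 ± 0.28 (adjusted p = 0.00149), which turned (-1.69) with only TTS-annotated peaks counted. Il1b and Rsad2 went from no peak to 26.5 and 22.9 and 20.8 and 18.1, respectively (adjusted p = 0.00104 and 0.00102). Cxcl1 reached 16.99 and 17.1, the highest of its groups (adjusted p = 0.00104). The largest increases were at Dclre1b, a nuclease of telomeres, which had no peak in ctrl/ctrl or IL-4 PT/ctrl and scored 15.7 and 21.2 in ctrl/LPS and 27.3 and 33.8 in IL-4 PT/LPS (adjusted p = 0.00102), and at Gabrd. Stat3, a transcription factor of cytokine signaling whose region also carries the end of Stat5a, had no peak in ctrl/ctrl or IL-4 PT/ctrl and scored 5.45 in 1 of 2 ctrl/LPS samples and 26.2 and 23.7 in IL-4 PT/LPS. It was high in IL-4 PT/LPS alone (adjusted p = 0.00511). Csf1r differed by -3.41 ± 0.32 (adjusted p = 0.00106) and by 0.37 with only TTS-annotated peaks. Among the largest decreases were Hfe and Ucp2, a mitochondrial uncoupling protein, which had no peak in IL-4 PT/LPS and scored 34.4 and 40.4 in ctrl/ctrl, 39.9 and 39.4 in IL-4 PT/ctrl, and 4.12 and 4.07 in ctrl/LPS (adjusted p = 0.00102). Pkm, the glycolytic enzyme pyruvate kinase, scored 17.5 and 18.8 in ctrl/ctrl, 38.97 and 31.8 in IL-4 PT/ctrl, 16.9 and 15.3 in ctrl/LPS, and 2.90 in 1 of 2 IL-4 PT/LPS samples (adjusted p = 0.00102), and another gene starts within its region. Under changed settings the call was lost for Il1b and Ucp2 with only TTS-annotated peaks. A call was gained for Ccl3 (the difference) with only TTS-annotated peaks, with quantile normalization, or without centring.

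Both LPS comparisons rest on separate samples, so they can be set side by side. Across the 1564 regions the 2 responses correlated at r = 0.600 (Spearman rho 0.593), with regions that share libraries and the floor for missing peaks. Of the 188 regions higher after LPS alone, 95 were also higher after IL-4 and 6 were lower, and of the 331 lower regions, 195 were also lower and 2 were higher. These 95 and 195 were 50.8% and 46.9% of the regions higher and lower after IL-4.

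The effect of IL-4 PT under LPS, compared as IL-4 PT/LPS against ctrl/LPS, was again mostly toward higher scores. At the TTS regions 253 (16.2%) were higher and 49 (3.13%) lower, and over all regions 10.8% were higher and 6.32% lower, with medians of 0.30 and 0.03. The TTS median was 0.16 without IL-4 PT/LPS replicate 1 and 0.15 without replicate 2, 0.13 with quantile normalization, 0.14 with only TTS-annotated peaks, and 0.03 with the raised floor. Of the 253 higher regions, 174 had no peak in either ctrl/LPS sample, and 42 had peaks in IL-4 PT/LPS only. Ribosomal protein genes were higher in 17 of 26 and lower in 1, with a median of 1.73, and all 8 with a peak in every sample were higher. Rpl19 differed by 1.69 ± 0.28 (adjusted p = 0.00844) and Rpl13 by 1.50 ± 0.28 (adjusted p = 0.0133), close to the effects of IL-4 without LPS. Rps15 scored 9.83 and 5.97 in ctrl/ctrl, 24.5 and 28.9 in IL-4 PT/ctrl, 3.01 and 3.17 in ctrl/LPS, and 14.2 and 12.7 in IL-4 PT/LPS, with a difference under LPS of 2.15 ± 0.29 (adjusted p = 0.00398) and the lowest scores in ctrl/LPS. With the raised floor 11 of the 26 were higher and none lower (median 0.61). With only TTS-annotated peaks, 7 were higher and 1 lower, and Rps15 turned (-1.06). Calls lost without 1 library were those of Rpl19 (adjusted p of 0.0527 without IL-4 PT/LPS replicate 1) and Rpl13 (adjusted p up to 0.072 without IL-4 PT/LPS replicate 1 or 2). Housekeeping genes were higher in 6 of 14 and lower in 1, and higher in 3 with only TTS-annotated peaks, with Gapdh present in both IL-4 PT/LPS samples and neither ctrl/LPS sample (adjusted p = 0.00147) and Pkm as the lower one (adjusted p = 0.00301). Other fits ended the call for Rpl13 with only TTS-annotated peaks and for Rps15 with peaks covering 50% of the region.

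Of the 12 IL-4-linked genes, 4 were higher under LPS and none lower. These were Retnla (adjusted p = 0.00147), Rnase2a (adjusted p = 0.0114), Irf4 (adjusted p = 0.00461), and Edn1 (adjusted p = 0.00147). Of these, Retnla, Irf4, and Edn1 had peaks only with IL-4 and were kept through those samples. Without 1 library the call was lost for Rnase2a (adjusted p up to 0.0682 without ctrl/LPS replicate 1 or IL-4 PT/LPS replicate 2). Edn1, the precursor of endothelin 1, had no peak in ctrl/ctrl or ctrl/LPS and scored 2.70 and 4.36 in IL-4 PT/ctrl and 37.9 and 29.2 in IL-4 PT/LPS. It had no peak without IL-4, a weak one after IL-4 alone, and a high one after both, the largest increase of the comparison. Among cytokine genes 3 were higher and none lower under LPS, and 1 was higher and 1 lower after quantile normalization and with the raised floor. Of the cytokine genes higher after LPS alone, Il1rn scored less with IL-4 PT in both samples without passing the test (-1.04 ± 0.29, adjusted p = 0.0569, and adjusted p of 0.0493 without IL-4 PT/ctrl replicate 2), and so was Il1b (-0.43 ± 0.36, adjusted p = 0.529). Il6 differed by -0.11 ± 0.32 (adjusted p = 0.987) and Ccl3 by -0.08 ± 0.17 (adjusted p = 0.894). Largest among the 49 decreases was Gm6377, a predicted gene, which had no peak in ctrl/ctrl, IL-4 PT/ctrl, or IL-4 PT/LPS and scored 25.9 and 26.9 in ctrl/LPS. Id3, an inhibitor of helix-loop-helix factors, had no peak in ctrl/ctrl, IL-4 PT/ctrl, or IL-4 PT/LPS and scored 16.3 and 10.7 in ctrl/LPS. Both regions were kept through ctrl/LPS alone, where they are high, as were 8 of the 49, so their difference is a description without a test. Ifit3b, an interferon target, had no peak in IL-4 PT/ctrl and scored 12.5 and 9.51 in ctrl/ctrl, 22.4 and 23.4 in ctrl/LPS, and 3.24 in 1 of 2 IL-4 PT/LPS samples (adjusted p = 0.0035). In the other fits the test no longer passed for Irf4 with the raised floor or with only TTS-annotated peaks. A call was gained for Il1rn with the raised floor, with the upper 50% of peaks, with quantile normalization, or without centring.

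The effects of IL-4 with and without LPS also rest on separate samples and correlated at r = 0.345 (rho 0.332) across the 1564 regions. Of the 362 regions higher after IL-4 alone, 110 were also higher under LPS and 3 were lower, which were 30.4% and 0.829% of the 362. Of the 86 lower regions, 14 were also lower and 1 was higher.

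**Figure D4:**
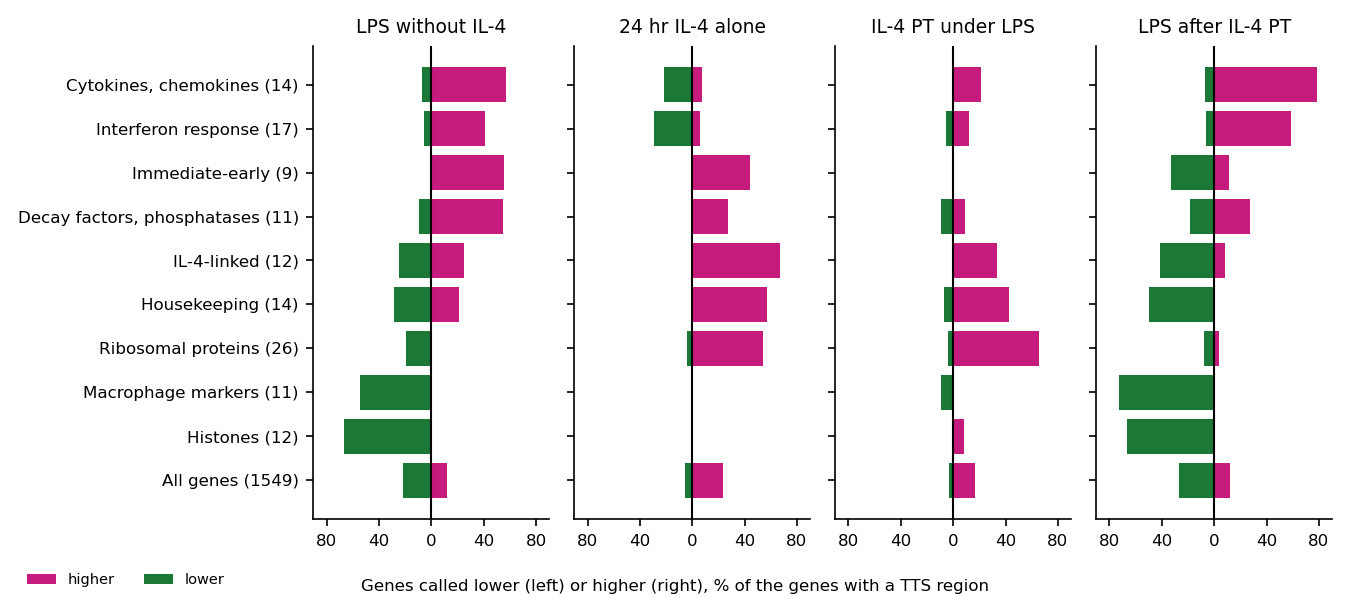
Share of the genes of each list that were called higher (right) or lower (left) at their TTS region (x axis, % of the genes with a TTS region, whose number is in brackets), with 1 panel per comparison. Cytokine and interferon genes are higher more often than lower and macrophage markers and histone genes the reverse in both LPS panels, and ribosomal protein genes are mostly higher in both IL-4 panels.

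Whether IL-4 PT changed the LPS response was tested as the difference between the 2 LPS responses. It was positive at 104 TTS regions (6.65%) and negative at 153 (9.78%), and over all regions it was positive at 10.6% and negative at 8.32%. Only 11 of the 104 and 23 of the 153 had a peak in all 8 samples, and 53 and 83 had peaks in 1 group only, through which they were kept. Rhob, a small GTPase, had no peak in IL-4 PT/LPS and scored 5.67 and 3.44 in ctrl/ctrl, 12.6 and 17.1 in IL-4 PT/ctrl, and 11.7 and 6.99 in ctrl/LPS. It lost its peak with LPS only where IL-4 had been given (adjusted p = 0.00674). Ubb, a polyubiquitin gene, had no peak in ctrl/ctrl or IL-4 PT/LPS and scored 4.34 and 25.1 in IL-4 PT/ctrl and 10.2 and 8.62 in ctrl/LPS, present after either stimulus alone and absent after both and in resting cells (adjusted p = 0.0128). Socs1 and E230016M11Rik, which lacked a peak only in ctrl/ctrl, had a lower LPS response after IL-4 (adjusted p = 0.00674 and 0.00674). Vim and Gadd45b, with peaks in every sample, had lower responses too, by differences of -1.44 ± 0.29 (adjusted p = 0.0174) and -1.60 ± 0.29 (adjusted p = 0.0124). In the other direction, Akap13, an anchoring protein of protein kinase A, had no peak in ctrl/LPS and scored 7.47 and 6.75 in ctrl/ctrl, 3.83 and 4.68 in IL-4 PT/ctrl, and 18.8 and 16.9 in IL-4 PT/LPS. It was lost after LPS alone and highest after both (adjusted p = 0.00674). Mx1 had a difference of 1.99 ± 0.40 (adjusted p = 0.0173), from its low score after IL-4 alone. Calls lost without 1 library were those of Mx1 (adjusted p up to 0.0588 without ctrl/LPS replicate 1 or 2 or IL-4 PT/LPS replicate 2) and Vim (adjusted p up to 0.0582 without ctrl/LPS replicate 1 or 2 or IL-4 PT/LPS replicate 2). Macrophage markers and histone genes showed 0 of 11 and 1 of 12 with a difference past the threshold. At an unadjusted p under 0.05, the count for the macrophage markers was 0 as well. Under changed settings the call was lost for Rhob and Akap13 with only TTS-annotated peaks, for Ubb and Vim with the raised floor, with only TTS-annotated peaks, or with peaks covering 50% of the region, for Socs1 with only TTS-annotated peaks or with peaks covering 50% of the region, for E230016M11Rik with peaks covering 50% of the region, and for Mx1 with the raised floor or with the upper 50% of peaks.

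**Figure D5:**
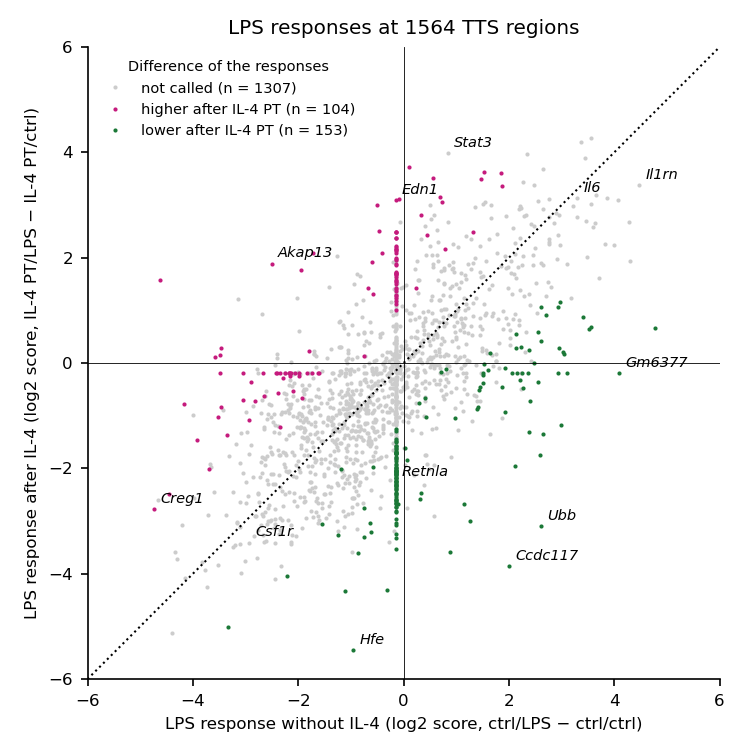
LPS response after IL-4 PT (y axis, log2 score, IL-4 PT/LPS minus IL-4 PT/ctrl) against the LPS response without IL-4 (x axis, log2 score, ctrl/LPS minus ctrl/ctrl) at the 1564 TTS regions, colored by the test of the difference. The 104 higher points lie above and the 153 lower points below the dotted line of equal responses, and the vertical line of points at -0.15 holds regions without a peak in ctrl/ctrl and ctrl/LPS.

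The same gene ends were also measured with the antibody to RNAPII phosphorylated on serine 5 (RNAPII-pS5) in separate samples of the 4 groups. A RNAPII-pS5 peak in both samples was found at 849 of the 1564 regions in ctrl/ctrl, 962 in IL-4 PT/ctrl, 564 in ctrl/LPS, and 733 in IL-4 PT/LPS, highest in IL-4 PT/ctrl and lowest in ctrl/LPS as for RNAPII-pS2. Where RNAPII-pS5 had a peak in a compared sample, its differences correlated with those of RNAPII-pS2 at r = 0.803 across 1234 regions for LPS alone, 0.676 across 1323 for IL-4 alone, 0.647 across 1065 for IL-4 PT under LPS, and 0.812 across 1349 for LPS after IL-4. For LPS alone, RNAPII-pS5 had the same sign at 163 of 169 higher and 306 of 312 lower RNAPII-pS2 regions, and for IL-4 alone at 292 of 328 higher and 66 of 74 lower ones. Over all regions so compared, the median RNAPII-pS5 difference was -0.64 for LPS alone and 0.24 for IL-4 alone. Part of the shared sign at lower regions after LPS and higher regions after IL-4 thus goes with these medians.

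Differences at gene ends were only weakly correlated with those at the starts of the same genes. Across the 672 TTS regions whose gene had a RNAPII-pS5 promoter region, the differences at both places correlated at r = 0.134 for LPS alone and 0.0839 for IL-4 alone, and across 736 with a RNAPII-pS2 promoter region at 0.0757 and -0.0239. Of 75 genes called at both the end and the RNAPII-pS5 promoter for LPS alone, 48 moved in the same direction. Txnip had RNAPII-pS5 promoter scores of 12.1 and 12.2 in ctrl/ctrl and 21.3 and 28.8 in ctrl/LPS (a difference of 1.22, limma adjusted p = 0.00635) while its end lost the RNAPII-pS2 peak. At Il6 the RNAPII-pS5 promoter was higher as well, with 5.95 in 1 of 2 ctrl/ctrl samples and 16.5 and 17.5 in ctrl/LPS (adjusted p = 0.0218).

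Binding of p65, the NF-κB subunit, was measured in the same 4 groups. A p65 peak in both samples overlapped 91 TTS regions in ctrl/ctrl, 102 in IL-4 PT/ctrl, 231 in ctrl/LPS, and 286 in IL-4 PT/LPS. In ctrl/LPS such a peak was present at 31.9% of the 188 regions higher after LPS, 6.65% of the 331 lower ones, and 14.3% of the 1045 that were not called. Another gene's start lay inside 2.66%, 16.6%, and 6.70% of these sets, respectively. Of the same sets 52.7%, 86.7%, and 76.6% held a RNAPII-pS2 peak in all 4 samples of the 1 hr experiment.

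The study's RNA sequencing classes of LPS-induced genes were set beside the TTS regions. They were chosen by the study on RNA of IL-4-pretreated and LPS-treated BMDMs and are not independent evidence of direction. That RNA was taken after a longer LPS exposure than the 1 hr used here. It measures steady-state mRNA and not polymerase, so time and measure both differ. Of the genes classed as induced less with IL-4 PT, 94 had a TTS region, and 28 were higher and 7 lower after LPS alone, while under LPS 9 were higher and 12 lower with IL-4 PT (median -0.07 against 0.30 over all TTS regions, a value that moves with the settings given above). Of the genes classed as not significantly affected by IL-4 PT, 137 had a TTS region, with 51 higher and 6 lower after LPS alone (37.2% and 4.38%) and 14 higher and 1 lower with IL-4 PT under LPS (10.2% and 0.73%). Of those induced more with IL-4 PT, 35 had a TTS region, with 9 higher and 2 lower after LPS alone (25.7% and 5.71%) and 7 higher and 1 lower with IL-4 PT under LPS (20% and 2.86%, median 0.73). For the class induced less, the shares were 29.8% and 7.45% after LPS alone and 9.57% and 12.8% under LPS. Over all TTS regions, 12.0% were higher and 21.2% lower after LPS alone, and 16.2% and 3.13% with IL-4 PT under LPS.

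Among the genes that the study names, 9 had a TTS region. Il1b and Edn1 are given above. Cd14, the LPS co-receptor, had no peak in IL-4 PT/ctrl and scored 7.78 and 5.49 in ctrl/ctrl, 21.8 and 24.1 in ctrl/LPS, and 9.59 and 16.7 in IL-4 PT/LPS. It was lost after IL-4 alone (adjusted p = 0.00855) and highest in ctrl/LPS (1.66 ± 0.38, adjusted p = 0.0165), while the effect of IL-4 PT under LPS was -0.83 ± 0.38 (adjusted p = 0.222). Fos, an immediate-early factor, and Klf4, a transcription factor induced by IL-4, each had a peak only after IL-4 alone, with 3.21 and 9.96 for Fos and 4.51 and 6.90 for Klf4, so that these regions were kept through that group and their difference has no test. The study reports Fos mRNA as repressed and Klf4 mRNA as activated by IL-4, so the Fos peak goes the other way. Levels of mRNA are another measure than polymerase. Nlrp3, the inflammasome sensor, had no peak in IL-4 PT/ctrl and scored 2.80 in 1 of 2 ctrl/ctrl samples, 4.07 and 4.68 in ctrl/LPS, and 3.34 in 1 of 2 IL-4 PT/LPS samples, with no comparison past the test. Fcgr1, the high-affinity IgG receptor, had no peak in ctrl/LPS or IL-4 PT/LPS and scored 16.3 and 8.48 in ctrl/ctrl and 7.25 and 6.09 in IL-4 PT/ctrl and was lower after LPS alone (adjusted p = 0.0017). Lyz2, lysozyme, had no peak in IL-4 PT/LPS and scored 30.7 and 22.9 in ctrl/ctrl, 5.54 and 15.3 in IL-4 PT/ctrl, and 12.4 in 1 of 2 ctrl/LPS samples and did not pass the test for LPS alone (adjusted p = 0.0835, and adjusted p of 0.00772 without ctrl/LPS replicate 2). Ppia, cyclophilin A, scored 11.5 and 8.49 in ctrl/ctrl, 19.6 and 19.9 in IL-4 PT/ctrl, 6.39 and 6.74 in ctrl/LPS, and 16.4 and 20.1 in IL-4 PT/LPS. It was higher in both IL-4-pretreated groups, by 1.06 ± 0.25 without LPS (adjusted p = 0.0271) and 1.49 ± 0.25 with LPS (adjusted p = 0.00878), the latter turned (-0.36) with only TTS-annotated peaks. Calls lost without 1 library were those of Cd14 (adjusted p up to 0.0819 without ctrl/ctrl replicate 2 or ctrl/LPS replicate 1 or 2) for LPS alone and Ppia (adjusted p up to 0.105 without ctrl/ctrl replicate 2 or IL-4 PT/ctrl replicate 1 or 2) for IL-4 alone. Other fits ended the call for Cd14 (IL-4 alone) with the raised floor or with only TTS-annotated peaks and for Ppia (IL-4 alone) with only TTS-annotated peaks or with peaks covering 50% of the region. A call was gained for Lyz2 with the raised floor, with peaks covering 50% of the region, or with the upper 50% of peaks.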

How the data were processed

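RNAPII-pS2, RNAPII-pS5, and p65 ChIP-seq peak lists of the pretreatment experiment and polymerase peak lists of the 1 hr experiment were used (32 of 56 files), and the other 24 files, for other factors and marks, were not used here. The authors deposited annotated MACS2 peaks with a −log10 p- or q-value as the score, and per the submitters' processing notes the reads were processed with BWA 0.7.10, SAMtools 0.1.19, MACS2 2.0.10, and HOMER 4.2 on mm10. The lists hold no read counts, so depth is unknown, no counting interval can be given, and the score grows with depth. The lowest score was 1.39, below the score of 2 that the stated q cut-off of 0.01 would give.

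Peaks of each annotation class were merged across the 8 samples (overlap of at least 1 bp), and classes were kept apart. A region took the highest score of any overlapping RNAPII-pS2 peak, or the floor of 1.39, on the log2 scale, and each sample was centered on its median over the 10514 regions with a peak in all 8. Group means were fitted with limma 3.58.1 in R 4.3.3, and p-values were adjusted by Benjamini-Hochberg over all 41506 regions, with a call at 0.05 or below. The procedure was first run on simulated data, with effects added only at regions with a peak in all 8 samples. That run says little about calls that rest on missing peaks. Python 3.11.15, NumPy 2.4.6, and pandas 2.3.3 were used otherwise. Gene names came from the named transcript, through RefSeq for 1547 regions and the files for 13, and 4 kept an accession.

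The regions and gene lists were chosen with earlier results of these data known. Genes named are the 10 largest changes per direction and comparison, list members, genes the study names, and the 10 highest scores, and others, such as single promoters, were named after their values were seen. A few genes that this rule picks are not reported here. The gene lists held inflammatory cytokines, NF-κB genes, immediate-early genes, decay factors and phosphatases, LPS sensors, IL-4-linked genes, interferon genes, macrophage and other cell type markers, housekeeping, cholesterol and lysosome, ribosomal protein, and histone genes. Same-numbered samples did not deviate together (r = -0.0224 to 0.0233). These correlations cannot exclude that replicate numbers pair samples, and the main fit used no pairing. Alternatives varied the floor, centring, merging, overlap, peak strength, annotation class, and samples, and recounts of list members were added after seeing the data.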

Additional observations from a re-analysis of the deposited data

Results flagged for a closer look

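The test of the difference between both LPS responses, with and without IL-4 PT, passed at 104 TTS regions where the response was higher after IL-4 PT and at 153 where it was lower. Of the 10 strongest in each direction, 9 lower and 10 higher are given here as log2 differences of the scores, with missing peaks set to the lowest score of the files. Most of these genes lacked a peak in at least 1 group, so the size of each value depends on that floor and is no measure of fold change.

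A lower response after IL-4 PT was found at Ccdc117 (-5.85), Ubb (-5.70), Hfe (-4.49), Rhob (-4.47), Adamtsl5 (-4.34), Gm6377 (-4.28), Socs1 (-4.16), E230016M11Rik (-4.10), and Jun (-4.06). Of these, Gm6377 had a peak in ctrl/LPS alone and was kept through that group, and Socs1 and E230016M11Rik had one in every sample but ctrl/ctrl. Hfe was not next to its RefSeq end.

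A higher response was found at Midn (6.19), Akap13 (4.39), Cdc42se1 (3.82), Tbc1d17 (3.74), Neat1 (3.71), Sec14l2 (3.69), Tmem62 (3.65), Lpxn (3.60), Pon1 (3.51), and Pgap6 (3.39). The region of Tbc1d17 also carries an end of Il4i1, and those of Tmem62 and Pgap6 hold the start of another gene. Akap13, Tbc1d17, Sec14l2, Tmem62, and Pgap6 had a peak in both samples of every group but ctrl/LPS. With a floor 4 times as high, the test passed at 8 and 23 TTS regions. No group here has 4 samples, so single samples were not tested for standing apart.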

How the results depend on the processing

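With a floor 4 times as high, LPS alone gave 116 higher and 193 lower, IL-4 alone 46 lower, IL-4 PT under LPS 130 higher and 32 lower, LPS after IL-4 103 higher, and the difference between the LPS responses 8 higher and 23 lower. Among the 411 regions with a peak in all 8 samples, the counts higher and lower were 60 and 86 for LPS alone, 104 and 17 for IL-4 alone, 61 and 8 for IL-4 PT under LPS, 36 and 101 for LPS after IL-4, and 6 and 15 for the difference. With the upper 50% of peaks, which left 711 TTS regions, they were 83 and 195, 195 and 39, 124 and 23, 81 and 265, and 33 and 41 in the same order. These settings test fewer regions or shrink the differences from missing peaks by construction. The share of calls that were higher moved from 31.0% to 20.3% for LPS after IL-4 with the raised floor, and for the difference from 40.5% to 25.8% with the raised floor and 28.6% with peaks in all 8 samples. At an adjusted p of at most 0.1, 74 regions were lower with IL-4 PT under LPS.

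Requiring 1 or all 8 samples in place of 2 gave 2541 and 171 TTS regions. Leaving out 1 library gave 53 to 77 lower regions for IL-4 alone, with 53 and 55 without ctrl/ctrl replicate 1 and 2, and 66 to 101 higher regions for the difference, with 66 without ctrl/LPS replicate 1. A group left with 1 sample was assumed to vary like the others. Without centring, the median TTS difference moved from -0.15 to 0.00 for LPS alone and from -0.57 to -0.39 for LPS after IL-4, and quantile normalization gave -0.76 for the latter. Over all TTS regions the downstream edge was 906.5 bp in ctrl/ctrl, 984.5 bp in IL-4 PT/ctrl, and 941 bp in IL-4 PT/LPS. A poly(A) signal in the last 100 bases stood at 84.8% of ends with a TTS region and 76.3% of all ends.

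With the replicate number as a block, the counts higher and lower were 180 and 323 for LPS alone, 323 and 76 for IL-4 alone, 229 and 40 for IL-4 PT under LPS, 183 and 408 for LPS after IL-4, and 80 and 123 for the difference, and 3 of the 109 named calls were lost, those of Il10 (adjusted p = 0.0755) and Ppia (0.0526) for IL-4 alone and Itgam (0.061) for LPS alone. Named calls lost in the other fits numbered 13 with the raised floor, 14 with 50% overlap, 10 with the upper 50% of peaks, 23 with only TTS-annotated peaks, 3 with quantile normalization, 1 without centring, and 1 among regions with a peak in all 8 samples.

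Of the named genes, 12 results turned direction. Where only TTS-annotated peaks gave the value, so that other peaks are read as missing, these were Il10 (-2.68) and Actg1 (-4.54) and Rpl13 (-0.53) for IL-4 alone, Rps15 (-1.06) and Ppia (-0.36) for IL-4 PT under LPS, Actg1 (-4.84), Csf1r (1.94), Zfp36 (-4.05), and Itgam (0.38) for LPS alone, and Mx1 (-1.69) and Csf1r (0.37) for LPS after IL-4. Where a peak had to cover at least 50% of the region, Hcar2 turned for LPS alone (1.60). Depth limits every absence, since a missing peak may be a weak one.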

Other observations

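Of 9 genes for LPS receptors, Toll-like receptors, and inflammasomes with a TTS region, 2 were higher and 1 lower after LPS alone, and 2 were higher and 1 lower after IL-4 alone, against 12.0% higher and 21.2% lower of all TTS regions after LPS alone and 23.1% and 5.50% after IL-4 alone. Casp4, the murine caspase-11 that senses intracellular LPS, had no peak in ctrl/ctrl and scored 2.90 in 1 of 2 IL-4 PT/ctrl samples, 20.98 and 18.03 in ctrl/LPS, and 21.6 and 19.8 in IL-4 PT/LPS. Both LPS groups were far above the rest and overlapped each other (limma adjusted p = 0.00102 for LPS alone). Clec7a, the β-glucan receptor Dectin-1, had no peak in ctrl/LPS and scored 10.2 and 9.41 in ctrl/ctrl, 21.9 and 20.2 in IL-4 PT/ctrl, and 12.6 and 7.36 in IL-4 PT/LPS. It lost its peak after LPS alone (adjusted p = 0.00128) and kept it where IL-4 had come first (adjusted p = 0.00239 for IL-4 PT under LPS). Myd88, the adaptor of most Toll-like receptors, scored 11.9 and 11.3 in ctrl/ctrl, 12.4 and 6.03 in IL-4 PT/ctrl, 22.8 and 17.5 in ctrl/LPS, and 15.2 and 12.7 in IL-4 PT/LPS and did not pass in any of the 5 comparisons. In the other fits the test no longer passed for Clec7a with only TTS-annotated peaks or with the upper 50% of peaks and for Clec7a (IL-4 PT under LPS) with the raised floor, with only TTS-annotated peaks, or with the upper 50% of peaks.

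Of 6 genes of cholesterol efflux and the lysosome, 1 was higher and 2 were lower after LPS alone, and 2 were lower after LPS following IL-4, where 26.6% of all TTS regions were lower. Counts of so few genes are near these shares. Lipa, the lysosomal acid lipase, had no peak in ctrl/LPS or IL-4 PT/LPS and scored 10.5 and 11.2 in ctrl/ctrl and 7.83 and 22.1 in IL-4 PT/ctrl. It had a peak in every sample without LPS and in none with LPS (adjusted p = 0.00374 for LPS alone). Grn, which encodes progranulin, scored 40.5 and 40.3 in ctrl/ctrl, 45.9 and 35.6 in IL-4 PT/ctrl, 32.2 and 24.1 in ctrl/LPS, and 24.2 and 25.1 in IL-4 PT/LPS, with no call after LPS alone. Under changed settings the call was lost for Lipa with the raised floor, with only TTS-annotated peaks, with peaks covering 50% of the region, or with the upper 50% of peaks.

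Of the 9 immediate-early genes, 4 were higher after IL-4 alone, and after IL-4 the addition of LPS was followed by 1 higher and 3 lower, against 12.0% and 26.6% of all TTS regions. Of the 4, Fos and Klf4 had peaks after IL-4 alone only and were kept through that group. Neither their rise with IL-4 nor their fall where LPS followed IL-4 has a test. Fosl2, a member of the AP-1 family, scored 4.18 in 1 of 2 ctrl/ctrl samples, 14.4 and 14.1 in IL-4 PT/ctrl, 13.96 and 12.5 in ctrl/LPS, and 18.4 and 18.9 in IL-4 PT/LPS. Ctrl/ctrl was below the other 3 groups, and IL-4 PT/LPS was the highest (adjusted p = 0.015 for IL-4 alone, adjusted p up to 0.079 without IL-4 PT/ctrl replicate 1 or 2). By direction of the call, AATAAA or ATTAAA stood in the last 50 bases of 87.6% of the 170 protein-coding ends higher after LPS alone, 76.9% of the 316 lower, 86.1% of the 339 higher after IL-4 alone, and 86.5% of the 74 lower.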
